A study of Mus musculus with 6 samples.

Results

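The expression of 6 genes of fat and sterol synthesis was followed across muscle, adipose tissue and liver labels of obese mice given a bitter melon seed extract or saline. The genes were Srebf1, Fasn, Acly, Scd1, Nsdhl and Sqle, chosen by name, and every probe that the platform annotation gives 1 of these symbols was used. This took 8 of the 29922 probes on the array: 3 for Nsdhl and 1 for each of the other genes. Total RNA was labelled with Cy5 and hybridised to 1-colour oligonucleotide arrays, 1 array for each of 6 groups. The groups were MCSE liver, PBS liver, MCSE muscle, PBS muscle, MCSE adipose tissue and PBS adipose tissue. All mice were of the ob/ob strain (B6.V-Lepob/J), which lacks functional leptin, so every group carried that allele and no lean group entered. MCSE is an aqueous extract of seeds of Momordica charantia, and PBS is phosphate-buffered saline. After a fast of 4 h, either was given by mouth 15 min ahead of glucose at 1 g/kg into the peritoneum, and tissue was taken 4 h after the glucose. The ages, sexes and number of mice behind an array are not given in the labels used here. Intensities were compared as log2, where 1 unit is a 2-fold difference.

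With 1 array for each treatment and label, no difference between MCSE and PBS has a replicate check, and none is given a p-value. As a gauge of disagreement between probes, the SD of the difference for 1 probe was estimated from pairs of probes for the same gene. It was 0.611 on the liver-labelled pair (1653 genes), 0.517 on the muscle-labelled pair (1504 genes) and 1.74 on the adipose-labelled pair (2068 genes). It holds no variation between mice and no error of an array that both probes of a gene share. It therefore cannot bound the error of a difference between arrays.

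The arrays did not all match their labels. Fast-twitch fibre genes had median log2 intensities of 15.85 on MCSE muscle and 15.91 on PBS muscle, against 8.96 to 9.15 on the other 4 arrays. Both liver-labelled arrays and the MCSE adipose array carried hepatocyte genes (medians of 11.87 to 12.37), white adipocyte genes (14.59 to 14.97) and kidney tubule genes (12.02 to 13.64) together. The muscle-labelled arrays carried white adipocyte genes too, with medians of 12.89 on MCSE muscle and 12.75 on PBS muscle. All 9 of these genes reached the median of all probes (8.95) on both. Hepatocyte genes had medians of 8.87 on MCSE muscle and 9.35 on PBS muscle, and kidney tubule genes 9.72 and 9.22. The MCSE adipose and MCSE liver arrays had a Pearson r of 0.982 over all probes. The PBS adipose array had an r of 0.307 to 0.517 with the other 5, and proteasome genes, which every cell uses, had a median of 9.03 on it against 12.99 to 13.34 elsewhere. Below, liver, muscle and adipose therefore name labels, and differences that rest on the PBS adipose array are given as values only.

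Cells make fatty acids from cytosolic acetyl-CoA, and cholesterol from the same building block through squalene and lanosterol. The enzymes of both routes are transcribed under the sterol regulatory element-binding proteins (SREBPs), which are held in the endoplasmic reticulum by Insig proteins when sterols are plentiful. SREBP-1c, a product of Srebf1, is induced by insulin in liver, where with the carbohydrate sensor encoded by Mlxipl it drives lipogenesis, and SREBP-2 chiefly drives sterol synthesis. Liver and adipose tissue are the main lipogenic tissues of the mouse, and ob/ob liver is known for high lipogenesis.

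Srebf1, the regulator of the set, had a log2 intensity of 13.27 on MCSE liver and 13.41 on PBS liver. It lay at 12.32 on MCSE muscle and 12.63 on PBS muscle, and at 13.12 on MCSE adipose and 8.35 on PBS adipose. The order from the top was thus PBS liver, MCSE liver, MCSE adipose, PBS muscle, MCSE muscle and PBS adipose. The first 3 lay within 0.29 of each other, and the PBS adipose value was below the all-probe median (8.95).

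Acly, ATP citrate lyase, releases acetyl-CoA from citrate in the cytosol. Its log2 intensity was 13.10 on MCSE liver and 13.25 on PBS liver, 10.69 on MCSE muscle and 10.86 on PBS muscle, and 12.89 on MCSE adipose and 9.48 on PBS adipose. The liver-labelled values did not overlap the muscle-labelled ones, and the gap between those labels was larger than that of Srebf1.

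Fasn, fatty acid synthase, builds palmitate from malonyl-CoA. It lay at 14.57 on MCSE liver and 14.78 on PBS liver, 12.92 on MCSE muscle and 13.17 on PBS muscle, and 14.43 on MCSE adipose and 8.62 on PBS adipose. Fasn had the widest spread of the 8 probes over the 6 arrays, 6.16, a rank that rests on the PBS adipose array. Without that array its spread was 1.86. This was less than for the Nsdhl probes mMC018839 (3.53) and mMR028860 (1.98) and for Acly (2.56). The order of the arrays was the same as for Srebf1 and Acly.

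Scd1, stearoyl-CoA desaturase 1, turns saturated into monounsaturated fatty acids. It stood at 15.90 on MCSE liver and 15.82 on PBS liver, 15.27 on MCSE muscle and 15.80 on PBS muscle, and 15.90 on MCSE adipose and 11.63 on PBS adipose. The 5 arrays other than PBS adipose spanned 0.64. Scd1 was within 0.51 of the top of the intensity scale (16.41) on its brightest arrays, where a further increase could hardly show.

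Sqle, squalene epoxidase, catalyses the first oxygen-dependent step of sterol synthesis. Its probe was dim, at 9.79 on MCSE liver and 9.63 on PBS liver, 8.46 on MCSE muscle and 8.48 on PBS muscle, and 9.57 on MCSE adipose and 8.05 on PBS adipose. The values on both muscle-labelled arrays and on PBS adipose lay below the all-probe median, where the order of arrays is uncertain.

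Nsdhl, the sterol dehydrogenase that helps remove the methyl groups at carbon 4, had 3 probes. Probe mMC018839, the brightest by its mean, gave 11.30 on MCSE liver and 12.72 on PBS liver, 9.18 on MCSE muscle and 9.36 on PBS muscle, and 11.39 on MCSE adipose and 8.81 on PBS adipose. Probe mMR028860 gave 10.80 on MCSE liver and 10.89 on PBS liver, 8.92 on MCSE muscle and 9.09 on PBS muscle, and 10.86 on MCSE adipose and 9.56 on PBS adipose. On both of these probes the liver-labelled arrays lay above the muscle-labelled arrays.

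Probe mMC023481 of Nsdhl ran the other way. It gave 8.79 on MCSE liver and 8.25 on PBS liver, 9.41 on MCSE muscle and 9.31 on PBS muscle, and 10.06 on MCSE adipose and 12.40 on PBS adipose. Across the 6 arrays its Pearson r was -0.65 with mMC018839 and -0.33 with mMR028860, while those 2 probes had an r of 0.90 with each other. The 3 probes share a gene symbol and the same 6 arrays, and the probe sequences were not analysed here.

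**Figure D1:**
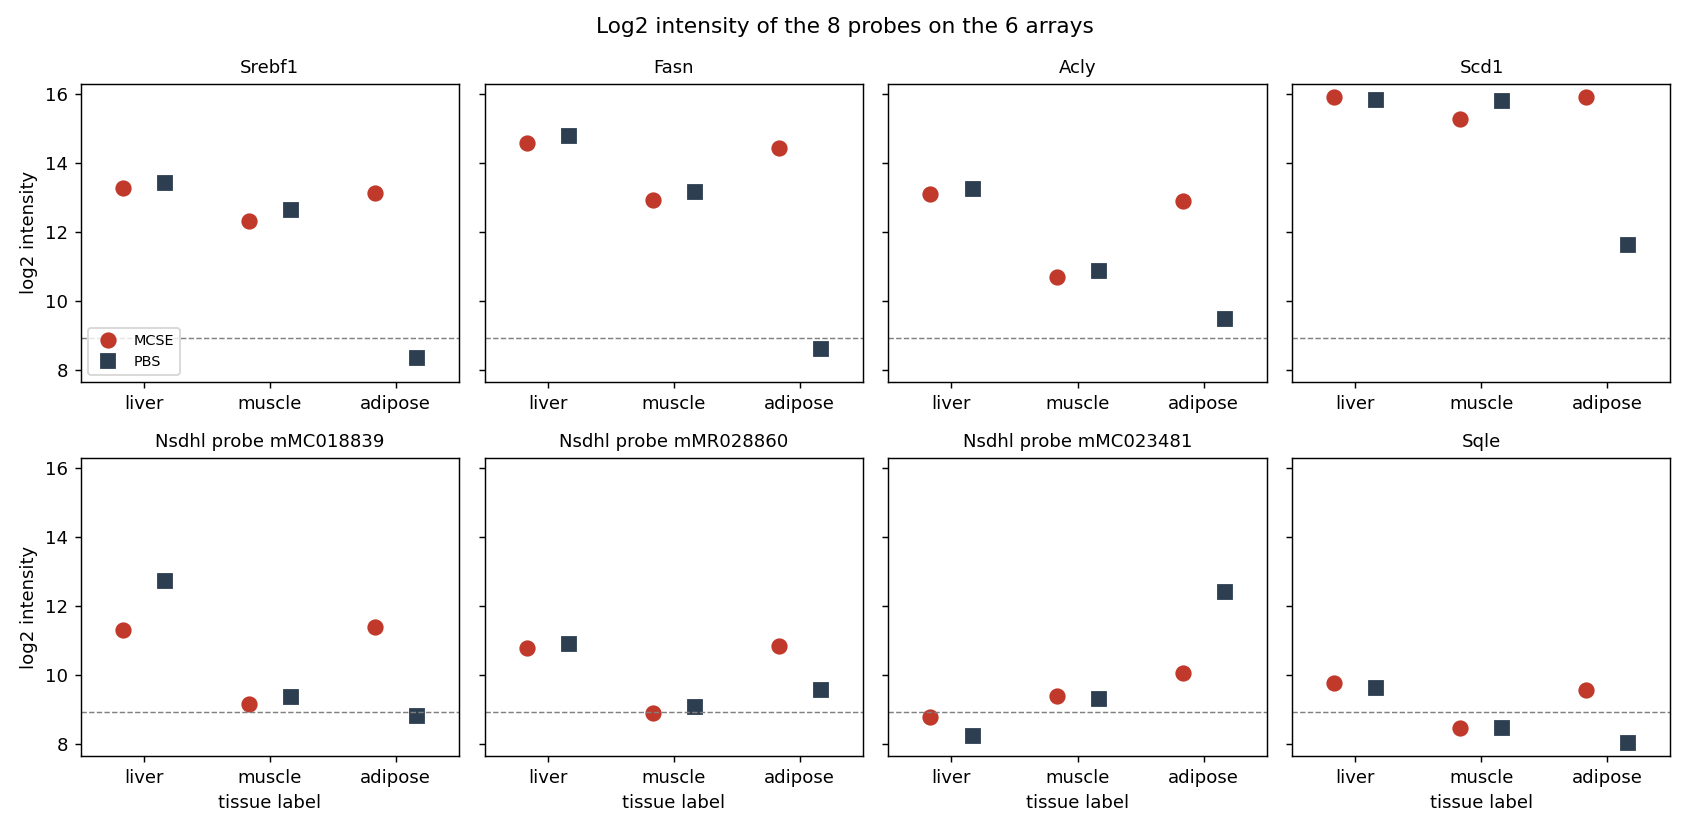
Log2 intensity of each of the 8 probes by tissue label, with MCSE as red circles and PBS as dark squares, 1 array per point; the dashed line is the all-probe median (8.95). For Srebf1, Fasn and Scd1 the PBS adipose array lies far below the other 5. For Acly it is also lowest, at 9.48 against 10.69 on MCSE muscle, and for Nsdhl probe mMC023481 it lies highest at 12.40.

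The first comparison was MCSE against PBS on the arrays labelled liver, the question being which genes of an insulin-responsive tissue differed with the extract. Srebf1, Acly and Fasn were close to equal on the pair, at -0.14, -0.15 and -0.21 as log2 MCSE minus PBS, and Scd1 stood at 0.08 and Sqle at 0.17. Each of these 5 differences was smaller than the SD per probe of 0.611. Of the 7 probes that reached the all-probe median on either array of the pair, 0 were 2-fold or more higher and 1 was 2-fold or more lower with MCSE, the Nsdhl probe mMC018839 at -1.42. Over all 16880 such probes, 8.48% were that much higher and 6.37% that much lower.

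The low Nsdhl value was not shared by its other probes. Probe mMR028860 differed by -0.09, and mMC023481, which stayed below the all-probe median on both arrays, by 0.54. The intensity of mMC018839 was 2.67-fold lower with MCSE, and the PBS liver value of 12.72 was the highest of the 6 for this probe. With 1 array on each side, the difference cannot be assigned to either array.

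Markers of other tissues moved on the same pair. Of 10 kidney tubule genes, 7 were 2-fold or more higher with MCSE and 0 lower, with a median difference of 1.28 and a summed intensity of 195743 on MCSE liver and 116871 on PBS liver. The 9 white adipocyte genes had a median difference of 0.48 and a summed intensity of 302535 on MCSE liver and 246767 on PBS liver, with all 9 at or above the all-probe median on both. The 11 hepatocyte genes had a median of -0.06 and sums of 99323.7 on MCSE liver and 116353 on PBS liver. The part of these tissues in the values of the 6 genes was not tested, and in whole-tissue RNA fewer cells of a type and less RNA per cell cannot be told apart.

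On the arrays labelled muscle the 6 genes were near equal or slightly lower with MCSE. Scd1 differed by -0.53, just over the SD per probe of 0.517, with 15.27 on MCSE muscle and 15.80 on PBS muscle. Srebf1 (-0.31), Fasn (-0.25), Acly (-0.17) and the Nsdhl probes mMC018839 (-0.17) and mMR028860 (-0.17) also lay below 0, and the Nsdhl probe mMC023481 was at 0.11. Sqle was below the all-probe median on both arrays. Of the 7 probes measured, 0 passed 2-fold in either direction, beside 4.41% of 16073 probes higher and 2.02% lower. The median of the 7 was -0.17, and that of all measured probes was -0.04. Marker genes moved on this pair as well. The median difference was -0.52 for hepatocyte, 0.49 for kidney tubule, 0.39 for macrophage and 0.22 for white adipocyte genes. It was 0.23 for proteasome and -0.05 for fast-twitch fibre genes. The part of these tissues in the values of the 6 genes was not tested here either.

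On the arrays labelled adipose, 7 of the 8 probes were 2-fold or more higher with MCSE and 1 was 2-fold or more lower. On this pair, however, 33.6% of 20712 probes were that much higher and 38.1% that much lower, 71.6% in all. Fasn differed by 5.81, Srebf1 by 4.77, Scd1 by 4.27 and Acly by 3.41. Nsdhl gave 2.58 on mMC018839, 1.30 on mMR028860 and -2.33 on mMC023481, and Sqle 1.52. Proteasome genes differed by a median of 3.82 on the same pair, with 11 of 12 past 2-fold, and white adipocyte genes by 5.07. Set against the MCSE liver array instead, the MCSE adipose array differed by -0.15 for Srebf1, -0.14 for Fasn, -0.21 for Acly, -0.22 for Sqle and 0.00 for Scd1. For Nsdhl it differed by 0.09 on mMC018839, 0.06 on mMR028860 and 1.27 on mMC023481.

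**Figure D2:**
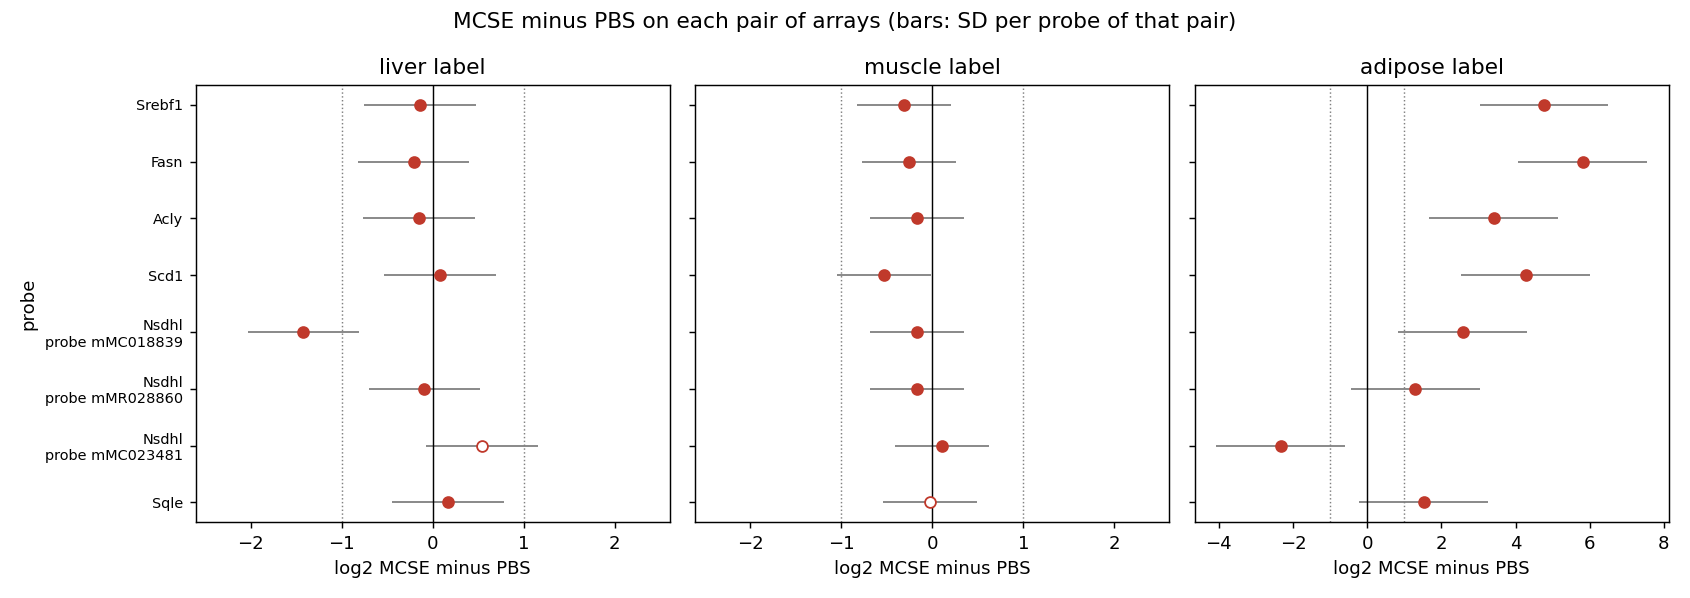
Log2 MCSE minus PBS (x axis) of the 8 probes (rows) on the liver-, muscle- and adipose-labelled pairs, each point from 1 array per treatment; bars are the SD per probe of that pair, dotted lines mark 2-fold, and open points were below the all-probe median on both arrays. Only Nsdhl probe mMC018839 passes 2-fold on the liver-labelled pair (-1.42), none does on the muscle-labelled pair, and the adipose-labelled pair has a wider scale.

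The second comparison set the liver label against the muscle label, to ask where the 6 genes were more abundant. Acly, Fasn and 2 of the 3 Nsdhl probes were higher on the liver-labelled arrays, by 3.09-fold to 6.66-fold. Sqle passed as higher too, with its muscle level below the all-probe median, while Srebf1, Scd1 and the third Nsdhl probe did not pass the test. It used limma on the 4 arrays of these labels, with the MCSE and PBS arrays of a label as its 2 samples, so that the spread holds any effect of MCSE. Of the 8 probes 5 passed an adjusted p of 0.05 as higher and 0 as lower, where 12.9% of 19055 probes passed as higher and 8.66% as lower. The p-values of this fit are from limma with Benjamini-Hochberg adjustment over the 19055 probes, and measure only the spread between these arrays.

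Acly averaged 13.18 ± 0.10 on the liver label and 10.77 ± 0.12 on the muscle label (SD, n = 2 arrays each). The difference was 2.40 ± 0.28 (SE), a 5.29-fold higher level, with an adjusted p from limma of 0.0043. It was 2.42 between the MCSE arrays alone and 2.39 between the PBS arrays alone.

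Fasn averaged 14.67 ± 0.15 on the liver label and 13.05 ± 0.17 on the muscle label, a difference of 1.63 ± 0.28 (SE, adjusted p from limma 0.0136). The MCSE arrays gave 1.64 and the PBS arrays 1.61. Sqle averaged 9.71 ± 0.12 on the liver label and 8.47 ± 0.02 on the muscle label, a difference of 1.24 ± 0.27 (adjusted p from limma 0.0265). Its muscle values were below the all-probe median, so it entered the test only through the liver label and the size of the difference is uncertain.

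Nsdhl was higher on the liver label on 2 of its 3 probes. The difference was 2.74 ± 0.49 (SE) on mMC018839, with limma giving an adjusted p of 0.0143. It was 1.85 ± 0.27 on mMR028860 (adjusted p 0.0086). On mMC018839 the MCSE arrays differed by 2.11 and the PBS arrays by 3.36, and the fit gave 2.03 without the PBS liver array and 3.44 without the MCSE liver array. Probe mMC023481 was at -0.84 ± 0.31 and did not pass (adjusted p from limma 0.0995). The probes of this gene thus disagreed in sign.

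Srebf1 averaged 13.34 ± 0.10 on the liver label and 12.47 ± 0.22 on the muscle label, a difference of 0.87 ± 0.29 (SE) with an adjusted p from limma of 0.0756. All values of the liver label lay above those of the muscle label. With treatment as a term of the fit its adjusted p was 0.0479. Scd1 differed by 0.33 ± 0.31 (adjusted p 0.450), with its signal near the top of the scale on both liver-labelled arrays and on PBS muscle.

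These calls depended on the arrays in the fit. With the adipose-labelled arrays added, which share in the estimate of the spread, 0 of the 8 probes passed, 0 of 22132 probes were higher and 0.249% passed in either direction. The adjusted p of Acly, over the 22132 probes of that fit, was then 0.679 and that of Fasn 0.869. Without the MCSE muscle array 0 of the 8 probes passed, and without the PBS muscle array 1 did, Acly. Without the MCSE liver array the Nsdhl probe mMC023481 passed as lower, at -1.11 (adjusted p from limma 0.0453). On the liver label 9 of 11 hepatocyte genes, 7 of 9 white adipocyte genes and 8 of 10 kidney tubule genes passed as higher too, and their part in the level of the 6 genes was not tested.

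**Figure D3:**
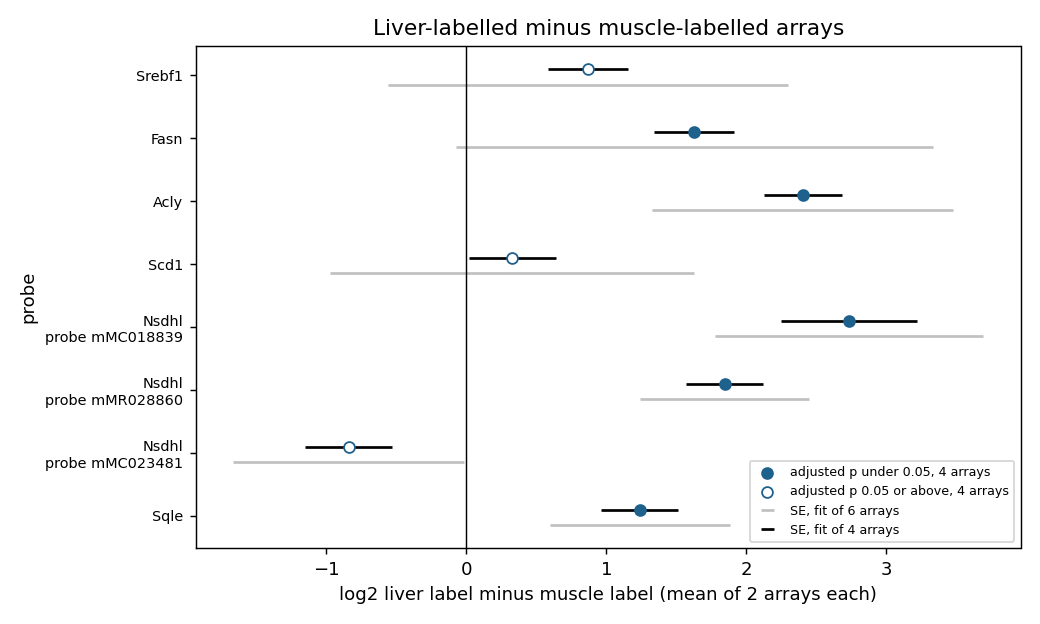
Log2 difference of the liver label minus the muscle label (x axis) for the 8 probes (rows), each label the mean of its MCSE and PBS arrays; filled points have an adjusted p under 0.05 in the fit of 4 arrays, with its SE in black and the SE of the fit of 6 arrays in grey. Acly (2.40), Fasn (1.63), Sqle (1.24) and the Nsdhl probes mMC018839 (2.74) and mMR028860 (1.85) are filled.

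Promoters are shown for Fasn, Acly and Nsdhl, which were higher on the liver label, to display sequence next to their start sites. RefSeq windows of 300 bases on build GRCm38.p6 (250 before the annotated start and 50 after it) were found for 4 of the 6 genes, with 3 windows for Srebf1. Motifs were searched on both strands: TCACNCC, a core of the sterol regulatory element, CACGTG, an E-box, CCAAT, the box bound by NF-Y, and GGGCGG, a GC box. Capitals mark a match to any of them, and neighbouring matches can overlap.
Fasn, chr11:120824498-120824797, minus strand: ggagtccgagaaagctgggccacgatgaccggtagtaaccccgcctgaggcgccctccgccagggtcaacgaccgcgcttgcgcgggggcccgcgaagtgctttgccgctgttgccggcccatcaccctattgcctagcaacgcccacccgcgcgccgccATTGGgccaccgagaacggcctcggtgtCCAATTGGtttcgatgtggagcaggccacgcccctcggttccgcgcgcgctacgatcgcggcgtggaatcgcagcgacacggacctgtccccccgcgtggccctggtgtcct
Acly, chr11:100527951-100528250, minus strand: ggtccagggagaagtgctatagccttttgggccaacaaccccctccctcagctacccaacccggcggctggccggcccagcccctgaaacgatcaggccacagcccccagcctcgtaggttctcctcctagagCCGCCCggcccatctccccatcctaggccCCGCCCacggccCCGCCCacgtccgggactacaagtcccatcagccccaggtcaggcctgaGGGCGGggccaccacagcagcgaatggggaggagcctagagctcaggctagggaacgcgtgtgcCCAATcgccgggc
Nsdhl, chrX:72918271-72918570, plus strand: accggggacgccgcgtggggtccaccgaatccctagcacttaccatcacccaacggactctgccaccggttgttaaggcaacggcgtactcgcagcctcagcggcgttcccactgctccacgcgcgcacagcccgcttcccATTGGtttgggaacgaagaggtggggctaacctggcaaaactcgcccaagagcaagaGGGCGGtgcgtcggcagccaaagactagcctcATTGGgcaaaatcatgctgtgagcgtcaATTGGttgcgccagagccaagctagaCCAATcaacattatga

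CCAAT occurred 3 times in the Fasn window, 2 of these overlapping, 4 times in the Nsdhl window and 1 time in the Acly window, and 37.4% of all 32851 promoter windows held it. GGGCGG occurred 4 times in the Acly window and 1 time in that of Nsdhl, against 35.7% of all windows with a match. TCACNCC and CACGTG had 0 matches in these 3 windows and in the 3 of Srebf1, and were found in 15.6% and 7.15% of all windows. A match describes these letters only and is not evidence of binding.

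Genes of the same pathways were taken from lists chosen with earlier results of these data known, each gene by its brightest probe. Brightness was the mean log2 over the 6 arrays, so the PBS adipose array has a part in the choice of probe. Of 14 cholesterol synthesis enzymes tested, Nsdhl and Sqle among them, 8 were higher on the liver label and 0 lower, where 14.5% of 12475 genes were higher and 8.86% lower. However, 7 of the 14, with 4 of the 8 higher ones among them, lay below the all-probe median on both muscle-labelled arrays. They entered the test only through the liver label, so the count is a description and supports no direction of the list. Ebp, the sterol isomerase, differed by 2.21 ± 0.36 (SE, adjusted p from limma 0.0111) and Sc5d, the sterol C5-desaturase, by 2.18 ± 0.29 (0.0064). Idi1, the isopentenyl diphosphate isomerase, differed by 1.93. Msmo1 (Sc4mol on the array), which acts before Nsdhl on the same methyl groups, differed by 2.11. It lay below the all-probe median on both muscle-labelled arrays, so the size of its difference is uncertain. With all 6 arrays in the fit, 0 of the genes of this and the other 4 lists passed, the lowest adjusted p from limma being 0.181.

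On the liver-labelled pair the 14 cholesterol enzymes had a median MCSE minus PBS of -0.29, beside -0.02 over all 11342 genes. Of these enzymes 0 were 2-fold higher and 1 was 2-fold lower, Nsdhl itself, where 8.27% of genes were higher and 6.01% lower. Lss, Pmvk and Ebp came nearest, at -0.91, -0.90 and -0.85, though a second probe of Lss gave -0.31, and 6 of the 14 lay above 0. On the muscle-labelled pair 7 enzymes were measured, with a median of -0.17, and 0 passed 2-fold in either direction, beside 5.78% of genes.

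Among fatty acid synthesis and desaturation genes, 9 of 15 were higher on the liver label and 1 was lower. Over all genes 14.5% were higher and 8.86% lower. The 15 include Acly, Fasn and Scd1, and the 9 include Acly and Fasn, so the count is not separate from the results above. Of the 15, 2 lay below the all-probe median on both muscle-labelled arrays, 1 of them among those called higher. Thrsp, the lipogenic protein Spot 14, differed by 3.07 ± 0.29 (SE, adjusted p from limma 0.0028), Pgd, which makes NADPH in the pentose phosphate pathway, by 2.85, and Scd2 by 2.13. The lower gene was Acacb at -2.70 ± 0.28 (adjusted p 0.0035). It encodes the acetyl-CoA carboxylase isoform that regulates fatty acid oxidation in muscle, and lay at 10.37 on MCSE liver and 10.18 on PBS liver, against 12.85 on MCSE muscle and 13.10 on PBS muscle. Its second, dimmer probe differed by -0.24. With MCSE on the liver-labelled pair, 0 of the 15 passed 2-fold either way, where 14.3% of genes did, and their median was -0.15.

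Of the SREBP regulators, 3 of 13 were higher on the liver label and 1 was lower, with a median of 0.24. Over all genes the median was 0.04, with 14.5% higher and 8.86% lower. The 13 include Srebf1, which did not pass. Insig1, the sterol-responsive anchor of SREBPs and itself an SREBP target, lay at 12.00 on MCSE liver and 12.63 on PBS liver, and at 8.68 on MCSE muscle and 10.13 on PBS muscle. It was higher on the liver label by 2.91 ± 0.52 (SE, adjusted p from limma 0.0147), while its other probes differed by 0.84 and 0.87 and did not pass. With MCSE the brightest Insig1 probe differed by -0.63 on the liver-labelled pair and -1.44 on the muscle-labelled pair, where 2.02% of probes were 2-fold or more lower. Its MCSE muscle value lay below the all-probe median. The other Insig1 probes gave -0.44 and -0.37 in liver. In muscle they gave -0.04 and -0.27, below the all-probe median on both arrays. Of the 13 regulators 1 was 2-fold or more higher on the muscle-labelled pair and 1 lower, where 5.78% of genes passed either way. The higher one was Nr1h2, named after its value was seen. It differed by 1.46, with 14.37 on MCSE muscle and 12.91 on PBS muscle.

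Srebf2, which encodes SREBP-2, was at -1.25 ± 0.35 for the liver minus the muscle label and did not pass (adjusted p from limma 0.0520). Its MCSE minus PBS was -0.81 on the liver-labelled pair and 0.04 on the muscle-labelled pair. Scap, the escort of SREBPs to the Golgi, differed by 0.27 and -0.26 on these pairs, Insig2 by 0.48 and -0.38 and Mlxipl by -0.03 and -0.15. Nr1h3, the sterol sensor LXR alpha that induces Srebf1, was higher on the liver label by 1.81 and Mlx, the partner of the Mlxipl product, by 1.12, whereas Rxra, which pairs with LXR, was lower, at -1.58.

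Glycerolipid assembly genes had 3 of 11 higher on the liver label and 0 lower, where 14.5% of all genes were higher and 8.86% lower. Dgat2, which adds the last fatty acid of triglycerides, differed by 2.55, Agpat2 by 1.81 and Dgat1 by 1.13. Mogat1, a monoacylglycerol acyltransferase, was the 1 gene of 10 past 2-fold, and higher, with MCSE on the liver-labelled pair, at 12.15 on MCSE liver and 10.65 on PBS liver, a difference of 1.5 on the log2 scale. Over all genes 8.27% were that much higher on this pair. Of the sterol uptake, transport and storage genes 5 of 11 were higher on the liver label and 2 lower, beside the same shares over all genes. Of the higher ones 3 (Stard4, Abcg1 and Soat1) lay below the all-probe median on both muscle-labelled arrays, and of the lower ones 1 (Abcg5) on both liver-labelled arrays. Npc2, a lysosomal cholesterol carrier, differed by 2.51, Abcg1 by 2.09, Stard4 by 1.63 and Abca1, the cholesterol exporter, by 1.51. The other higher gene was Soat1 (1.39) and the lower ones were Npc1 (-1.38) and Abcg5 (-1.25), named after their values were seen. With MCSE 0 of 10 passed 2-fold on the liver-labelled pair.

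**Figure D4:**
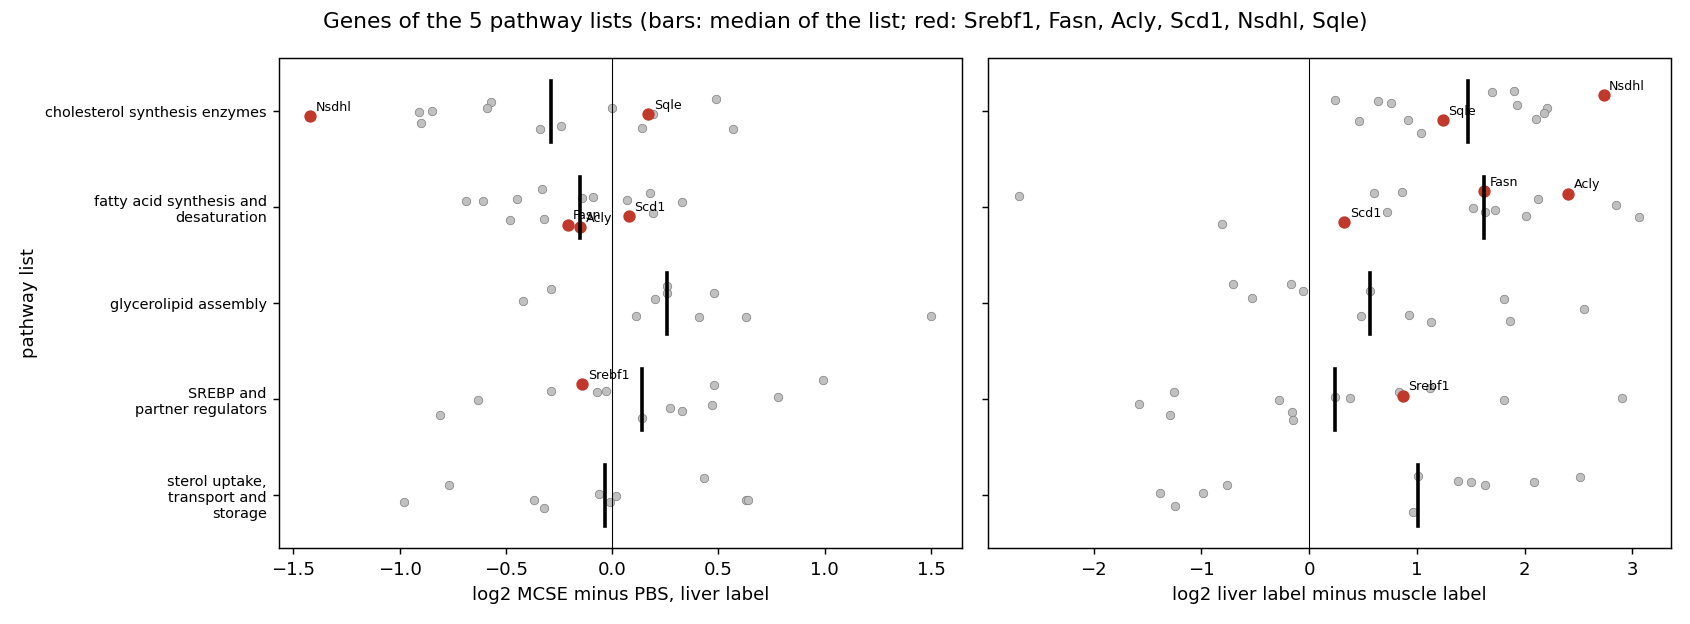
Genes of the 5 pathway lists (rows), with log2 MCSE minus PBS on the liver-labelled pair on the left and log2 liver label minus muscle label on the right; each point is the brightest probe of a gene, black bars are list medians and red points are the 6 genes. The cholesterol enzymes have a median of -0.29 on the left, and on the right 7 of the 14 were below the all-probe median on both muscle-labelled arrays.

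Across the 6 arrays the brightest probes of the 6 genes had a Pearson r between 0.59 and 0.99 for their 15 pairs (median 0.84). Nsdhl probe mMC023481, with an r of -0.65 to mMC018839, is not among them. Without the PBS adipose array the range was 0.63 to 0.997 (median 0.95). These correlations describe 6 arrays that share labels and scaling. The r between pairs of other genes is not set beside them, so they are not read as particular to the 6 genes. Among 11027 genes, those with the pattern most like Acly were Lgals12 and Mis12, and like Fasn Nap1l1 and Bckdhb, each with an r over the 6 arrays of 0.999 or more. The closest to Srebf1 were Thumpd1 and Vim, to Scd1 Serinc1 and Clint1, to Sqle Nrg4 and Casp9, and to Nsdhl Commd8 and 2810422O20Rik. Lgals12, at 12.62 on MCSE liver and 12.91 on PBS liver, and 9.37 on MCSE muscle and 9.65 on PBS muscle, also ended at 12.51 on MCSE adipose and 7.74 on PBS adipose. With a search over that many genes on 6 arrays, r values of this size say little about any 1 gene.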

How the data were processed

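The deposited values are linear, normalized intensities of 29922 probes on 6 arrays, and limma is named without version or role per the submitters' processing notes. Background correction, normalization method and build: not given in the sources used here. Deposited columns shared 1 distribution: sorted log2 values differed from their median over arrays by at most 0.008. No detection calls were used.

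Groups were taken from the titles. Probes were named through the platform annotation (21020 probes, 16675 symbols), and older symbols of list genes through RefSeq synonyms. Before log2 was taken, values under the 5th percentile (214.2) were set to it. A probe counted as measured in a comparison if 1 or more of its arrays reached the all-probe median. MCSE minus PBS was counted from 2-fold on, without a test. For the liver against the muscle label, limma 3.58.1 was run in R 4.3.3 (lmFit and eBayes, 4 arrays, 2 residual degrees of freedom, prior 4.23), tested on simulated data. The labels do not say whether arrays came from separate mice. Python 3.11.15, numpy 2.4.6, pandas 2.3.3, statsmodels 0.14.6 and matplotlib 3.10.9 were used. Precision is limited by the number of arrays.

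The members, lists, tests and the choice of the 4-array fit were made with earlier results of these data known. Named genes were the 6 members, fixed regulators (Srebf2, Scap, Insig1, Insig2, Mlxipl; the others fixed by name are not reported here), at most 4 genes per list past 2-fold or past the test, and 2 genes per member by correlation; Lss, Pmvk, second probes and Mbtps2 were named after their values were seen. Marker lists were hepatocyte, white adipocyte, kidney tubule, fast-twitch fibre, macrophage and proteasome genes; macrophage genes had medians of 11.88 on MCSE liver, 11.41 on PBS liver, 10.13 on MCSE muscle and 10.02 on PBS muscle. Alternatives were other scalings, floors, filters, thresholds and sets of arrays.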

Additional observations from a re-analysis of the deposited data

Results flagged for a closer look

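Nsdhl probe mMC018839 differed in sign between 2 labels under the same contrast. Its log2 MCSE minus PBS was -1.42 on the liver-labelled pair and 2.58 on the adipose-labelled pair, each from 1 array per treatment. The MCSE values were close, at 11.30 on MCSE liver and 11.39 on MCSE adipose, whereas PBS liver lay at 12.72 and PBS adipose at 8.81. Srebf1, Fasn, Acly and the other Nsdhl probes also differed in sign between these labels. The difference between the labels was not tested. On the adipose-labelled pair 71.6% of probes passed 2-fold in either direction.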

How the results depend on the processing

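For MCSE minus PBS, the 120 values of the 8 probes recomputed with other scalings or floors kept within the SD per probe, with shifts of at most 0.512 on the liver-labelled, 0.224 on the muscle-labelled and 1.29 on the adipose-labelled pair. The 10 recomputed list medians shifted by at most 0.048. Past a 3-fold threshold, 0 of the 8 probes were lower on the liver-labelled pair. Over all probes, counts past the threshold on the liver-labelled pair were 2508 at 2-fold, 6625 at 1.5-fold and 614 at 3-fold, and on the muscle-labelled pair 1033, 2976 and 300.

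For liver minus muscle label, 2463 probes were higher and 1650 lower. With all 6 arrays 0 were higher and 55 lower, with 0 of the 8 probes called. With treatment as a term 3520 were higher and 3510 lower, with 6 of the 8 probes higher. Without the filter on dim probes 1534 were higher and 937 lower, and the adjusted p from limma of Nsdhl probe mMC018839, over all 29922 probes, was 0.0893. Leaving out 1 array at a time gave 284 to 2788 probes higher and 321 to 2045 lower, with 0 to 5 of the 8 probes higher and 0 to 1 lower, the lone array of a label being assumed to vary like the others. Over these 4 fits the adjusted p ranged from 0.0192 to 0.0571 for Acly and from 0.0267 to 0.143 for Fasn. In a fit added after seeing the data, the MCSE adipose array replaced the PBS liver array: 5244 probes were higher and 4918 lower, and Nsdhl probe mMC023481 turned to 0.067. That fit pairs 2 nearly identical arrays. The fit with treatment as a term pairs the MCSE arrays, and the PBS arrays, of both labels. Probes near or below the all-probe median, such as Sqle on the muscle label, and Scd1 near the top of the scale limit what differences can show.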

Other observations

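Mbtps2, the site-2 protease that frees SREBPs in the Golgi, had 1 probe that was higher with MCSE under every label, a feature singled out after its values were seen. Its second-brightest probe gave 9.92 on MCSE liver and 8.72 on PBS liver, 9.97 on MCSE muscle and 8.98 on PBS muscle, and 9.98 on MCSE adipose and 8.57 on PBS adipose. The differences were 1.20, 0.99 and 1.40 on the log2 scale. Over all probes 8.48%, 4.41% and 33.6% were 2-fold or more higher on the liver-, muscle- and adipose-labelled pairs. The share higher under every label was not counted. The MCSE liver and MCSE adipose arrays had an r of 0.982, so these labels are not separate observations. The PBS values of this probe lay near or below the all-probe median (8.95). The brightest probe of Mbtps2 by its mean over all arrays lay at 10.78 on PBS adipose and at 8.79 to 9.51 elsewhere. Its rank thus leans on the PBS adipose array. It gave -0.29 on the liver-labelled, -0.23 on the muscle-labelled and -1.99 on the adipose-labelled pair. The third, dimmer probe gave -0.09, -0.56 and -1.46, so the probes disagreed in sign.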
